A study of Caenorhabditis elegans with 2 samples.

Results

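Of the 23018 candidate regions on the autosomes in the pooled list of a chromatin immunoprecipitation (ChIP-seq) experiment on CCCH-3, 251 had their summit within 500 bp of a tRNA gene. Among the listed regions, the members were found by position alone, from the summit of each region and the Ensembl annotation of tRNA genes. The signal value was not used for this choice, but the list and its summits were themselves called from the signal. The whole list holds 30000 regions, and 22767 autosomal regions lay farther from such a gene. CCCH-3 is named for the CCCH zinc finger, a fold held by 3 cysteines and 1 histidine, and is studied here in the nematode Caenorhabditis elegans. Whole young adults of strain OP628, of mixed sex and aged 70 hours, carried the integrated transgene wgIs628, in which ccch-3 from a fosmid is joined at its end to TY1, EGFP and 3xFLAG tags, with unc-119(+) as marker in an unc-119 (tm4063) background. All samples belong to this 1 group, which has 2 biological replicates, and the precipitation used an antibody against GFP. Each candidate list was called against 1 control alignment, and the labels do not say whether it came from input DNA or from untagged worms. No library labelled as untagged worms was used, so whether recovery at these regions needs the tagged protein was not tested. In whole worms, strong recovery in few cells and weak recovery in many cannot be told apart. With 1 group and no comparison between samples, the values below are counts, ranks and shares with no significance test, and shares over all members stand beside those of the other autosomal regions where these have the same measure.

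A tRNA gene encodes the adaptor that carries 1 amino acid, its isotype, to the ribosome. RNA polymerase III transcribes it from a promoter inside the gene, where the factor TFIIIC binds an A box near the start and a B box near the end and brings TFIIIB to the sequence just upstream. Transcription stops at a run of T after the gene. Many tRNA genes of one isotype carry the same sequence in many copies, so that a read from inside such a gene can fit several places.

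The genes below show what sort of element lies at members that are strong in the pooled list and at members of the same isotypes that are weak in it. The first 6 are the genes nearest to the highest-ranked members whose printed stretch shares no 30 bases with the chromosome kept out of print, and the last 3 belong to low-ranked members of the same isotypes. Each is read in the direction of the gene from the RefSeq sequence of WBcel235, which is ce11, with 20 bp on either side. Capitals mark the A box (TNGNNNANNNG, looked for in the first 30 bases of the gene) and the B box (GTTCNANNC, in the last 40).
F44A2.t1, tRNA-Ala, chrV:9318182-9318293, plus strand, pooled rank 79: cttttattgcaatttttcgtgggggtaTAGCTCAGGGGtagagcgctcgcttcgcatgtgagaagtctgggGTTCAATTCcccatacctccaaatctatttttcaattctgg
C24H11.t1, tRNA-Thr, chrIII:11792762-11792873, plus strand, pooled rank 97: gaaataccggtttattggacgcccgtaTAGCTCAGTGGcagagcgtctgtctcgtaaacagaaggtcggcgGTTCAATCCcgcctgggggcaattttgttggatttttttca
Y73B6BL.t1, tRNA-Val, chrIV:6481141-6481253, plus strand, pooled rank 169: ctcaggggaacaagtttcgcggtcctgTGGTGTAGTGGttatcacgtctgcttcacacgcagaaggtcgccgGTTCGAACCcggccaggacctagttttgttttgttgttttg
Y39A1A.t1, tRNA-Thr, chrIII:10624722-10624833, minus strand, pooled rank 177: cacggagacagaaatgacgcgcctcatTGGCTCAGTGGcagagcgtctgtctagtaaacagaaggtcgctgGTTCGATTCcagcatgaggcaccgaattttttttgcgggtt
W09G10.t1, tRNA-His, chrII:3521467-3521578, minus strand, pooled rank 179: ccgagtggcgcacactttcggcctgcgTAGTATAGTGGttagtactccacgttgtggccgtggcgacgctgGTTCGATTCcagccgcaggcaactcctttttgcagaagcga
K06A4.t1, tRNA-Ala, chrV:9503542-9503653, plus strand, pooled rank 183: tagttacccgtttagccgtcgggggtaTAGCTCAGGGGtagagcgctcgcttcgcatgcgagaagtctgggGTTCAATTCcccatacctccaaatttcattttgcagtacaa
F28F8.t2, tRNA-His, chrV:15554010-15554121, plus strand, pooled rank 13382: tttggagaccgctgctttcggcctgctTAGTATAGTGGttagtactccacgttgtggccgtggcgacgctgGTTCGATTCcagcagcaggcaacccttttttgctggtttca
F21A3.t2, tRNA-Val, chrV:15515486-15515598, minus strand, pooled rank 16279: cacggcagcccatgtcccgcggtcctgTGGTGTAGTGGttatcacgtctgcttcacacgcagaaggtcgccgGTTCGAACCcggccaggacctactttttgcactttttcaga
Y113G7B.t1, tRNA-His, chrV:20219281-20219390, plus strand, pooled rank 19867: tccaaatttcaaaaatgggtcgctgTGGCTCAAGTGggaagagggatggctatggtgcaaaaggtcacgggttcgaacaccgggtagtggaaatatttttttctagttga

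In 8 of these 9 genes the A box starts at base 8 and the B box at base 52 or 53 of the gene, and a run of TTTT lies in the 20 bases after each of the 9. Y73B6BL.t1 and F21A3.t2 have the same 73 bases, yet the regions beside them ranked 169 and 16279 in the pooled list. The strong tRNA-Thr genes, C24H11.t1 and Y39A1A.t1, differ at 15 of 72 bases. The 2 tRNA-Ala genes differ at 1 of 72 bases, T39C counted from the first base of the gene (the base of F44A2.t1 first), and ranked 79 and 183. W09G10.t1 and F28F8.t2 differ at 2 of 72 bases, G7T and C65A, and ranked 179 and 13382 in the pooled list. In replicate 1 they were close: the best region within 500 bp stood above 95.5% of autosomal regions at W09G10.t1 and above 93.5% at F28F8.t2. In replicate 2 it stood above 99.4% at W09G10.t1, and F28F8.t2 had no region. Only Y113G7B.t1, a gene of 70 bases found once in the genome, lacks the B box letters.

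Members ranked high in the pooled list. Their median signal value was 47.5 (lowest 29.4, highest 131), against 37.9 for the other autosomal regions (29.4 to 357). The signal value is the score from the authors' caller, whose scale the sources do not give, and a percentile here is the share of autosomal regions with a lower value. The median percentile was 79.7 in members, with quartiles at 51.1 and 95.7, and 49.7 in the others, with quartiles at 24.8 and 74.7. Among members 75.3% lay above the autosomal median (95% Wilson interval 69.6 to 80.2%) against 49.7% of the others. In the top 10% of autosomal regions were 90 of 251 members (35.9%, 30.2 to 42.0%) against 9.72% of the others (9.34 to 10.1%). In the top 1% were 20 members (7.97%, 5.22 to 12.0%) against 0.927%. The very highest autosomal signals were elsewhere: the best member had a signal value of 131 and rank 64. The lower end of the list was not empty either, and 10 members lay in its lowest 10%.

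**Figure D1:**
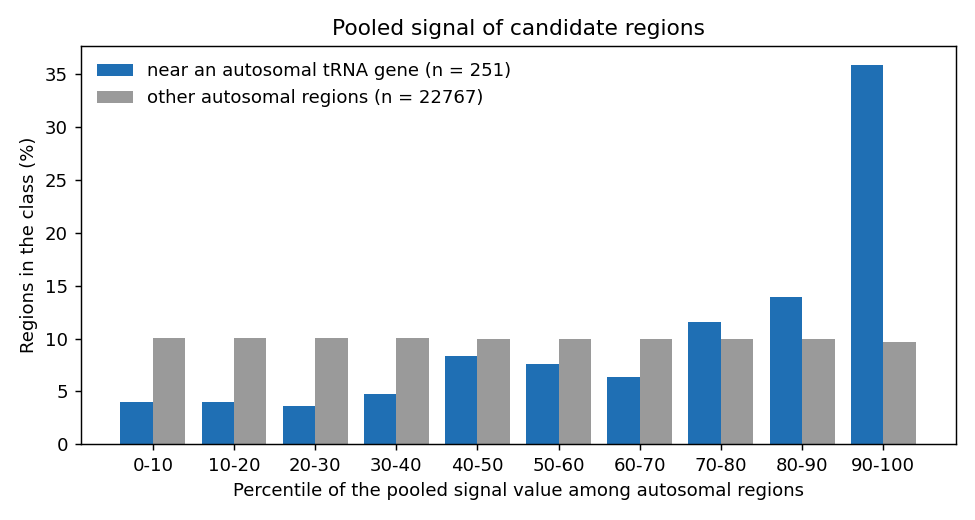
Share of regions (%) in each 10% class of the autosomal regions by pooled signal value, for the 251 members (left bars) and the 22767 other autosomal regions (right bars). The top class holds 35.9% of members and 9.72% of the others, and each of the lowest 4 classes holds under 5% of members.

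The reproducible list, thresholded by the irreproducible discovery rate from both replicates, holds 218 peaks, 161 of them on autosomes. These are the 161 autosomal regions of highest pooled signal value. Being one of these peaks thus restates the pooled ranking at a higher cut, and is no separate measure of agreement between replicates. Of the 251 members, 13 are such peaks (5.18%, 95% Wilson interval 3.05 to 8.66%), where 0.699% of all autosomal regions and 148 of the 22767 others (0.650%, 0.554 to 0.763%) are. Counted by an overlap of at least 1 bp it was 15 (5.98%), where 0.843% of all autosomal regions overlap a peak. The other 2 are weak neighbours of the peaks at K11H3.t2 and W09G10.t2, at pooled signal values of 31.4 and 37.7. The caller's pooled q-value was at or under 0.05 in the same 13 members, where 0.739% of all autosomal regions reached it. Their q-values ran from 0.00488 to 0.0305. One of the upper 109 peaks of the list by signal value was overlapped by 4 members (1.59%, 0.621 to 4.03%), where 0.434% of all autosomal regions and 0.422% of the others overlap one. The 13 peaks had a median signal value of 116, against 125 in the 148 other reproducible peaks on autosomes. All intervals here cover counting error only, and regions that lie side by side share reads. The reads behind each region are not known from the lists.

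The 13 peaks lie at genes of 11 isotypes and on all 5 autosomes. Ranks are given among the 23018 autosomal regions of the pooled list, the 23256 of replicate 1 and the 23232 of replicate 2, each for the overlapping region with the nearest summit. The highest member on chromosome I, and of all, was at F14B4.t1, a tRNA-Arg gene (I, 9267032 to 9267431, signal value 131), and ranked 64 in the pooled list, 70 in replicate 1 and 92 in replicate 2. The highest on chromosome III was at K11H3.t2, a tRNA-Ser gene (9861448 to 9861847, signal value 131), with ranks 65, 101 and 70 in the same order. The highest on chromosome V was at F44A2.t1, the tRNA-Ala gene printed above (9318059 to 9318458, signal value 122), with ranks 79, 99 and 134. These 3 stood within the top 1% of both replicates. The summit at F14B4.t1 lay in an exon of F14B4.1, which is on the other strand, and the summit at K11H3.t2 in an intron of twk-48, a potassium channel gene also on the other strand. The summit at F44A2.t1 lay between protein-coding genes, 52 bp from the start of kvs-3.

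At W09G10.t2, a tRNA-Lys gene and the highest on chromosome II (3519013 to 3519412, signal value 120), the ranks were 86 in the pooled list, 35 in replicate 1 and 187 in replicate 2. The region at T23F1.t2, a tRNA-Pro gene (V, 15464995 to 15465394, signal value 117), had ranks 89, 14 and 1121 in that order. The region at F53F8.t1, a tRNA-Cys gene (V, 20694029 to 20694428, signal value 117, summit in an intron of F53F8.7), had ranks 94, 150 and 80. T23F1.t2 was thus the highest of the 13 peaks in replicate 1 and the lowest of them in replicate 2. C24H11.t1, the tRNA-Thr gene printed above (III, 11792600 to 11792999, signal value 116), had ranks 97, 171 and 115. Y105C5B.t1, a tRNA-Asp gene and the highest on chromosome IV (15931877 to 15932276, signal value 109), had ranks 109, 106 and 215. T21B4.t1, a tRNA-Ile gene (II, 12494583 to 12494982, signal value 107, summit in an intron of the collagen gene col-85), had ranks 117, 131 and 139. These last 3 kept to the top 1% in each list.

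The 4 lowest of the 13 also differed in rank between replicates. F13G11.t1, a tRNA-Arg gene (IV, 14611283 to 14611682, signal value 100), ranked 135 in the pooled list, 141 in replicate 1 and 652 in replicate 2. C12C8.t5, a tRNA-Gly gene near cbl-1 (I, 9327358 to 9327757, signal value 97.2), had ranks 146, 1409 and 77. C37A2.t1, a tRNA-Cys gene (I, 6781710 to 6782109, signal value 96.2, summit in an intron of cye-1, the cyclin E gene), had ranks 149, 37 and 681. Each of these 3 ranked far higher in 1 replicate than in the other. Y53C10A.t2, a tRNA-Glu gene 642 bp from the start of rga-2 (I, 11978559 to 11978958, signal value 96.1), had ranks 150, 750 and 212.

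**Figure D2:**
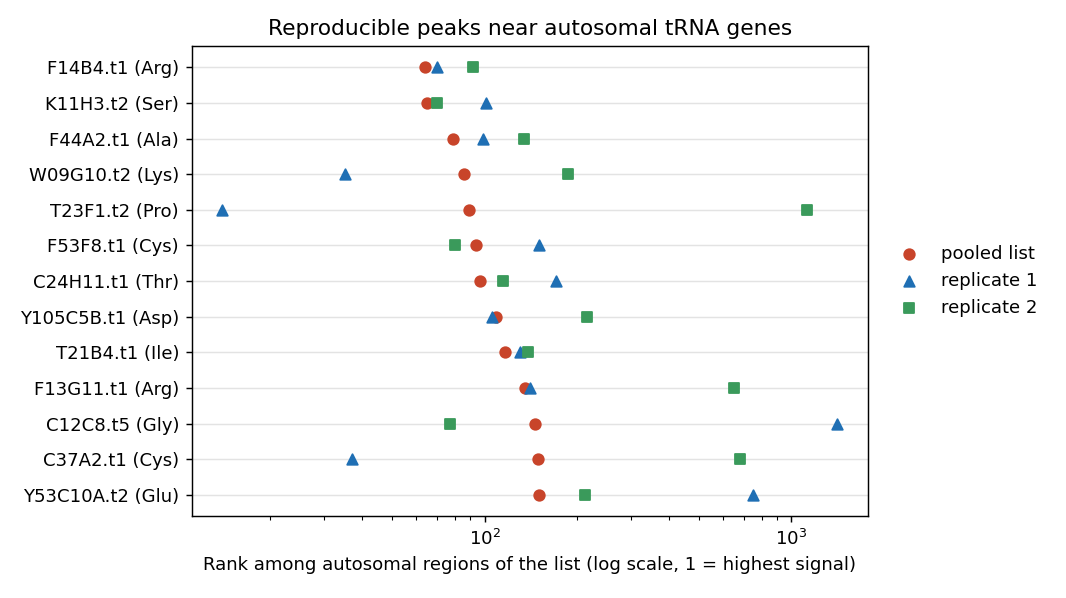
Rank of each of the 13 reproducible peaks near an autosomal tRNA gene among the autosomal regions of the pooled list (circles), replicate 1 (triangles) and replicate 2 (squares), on a log scale where 1 is the highest signal. Pooled ranks run from 64 to 150, while T23F1.t2 and C12C8.t5 span from 14 to 1121 and from 77 to 1409.

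At 4 of the 13 peaks a second tRNA gene lay within 500 bp of the summit, so 17 genes lie near a reproducible peak. The partner was W09G10.t3 (tRNA-Thr) at W09G10.t2, T23F1.t1 (tRNA-Lys) at T23F1.t2, C12C8.t2 (tRNA-Gly) at C12C8.t5 and K11H3.t1 (tRNA-Ser) at K11H3.t2. Gaps between the genes of a pair were 93, 67, 142 and 334 bp. In the first 3 pairs the 400 bp of the region cover both genes, so the peak cannot be given to either. At K11H3.t2 the summit lay inside that gene, and the region ended 175 bp before K11H3.t1. Next below the 13, without being reproducible peaks, came the members at Y73B6BL.t1 (tRNA-Val, signal value 91.8), Y39A1A.t1 (tRNA-Thr, 90.8), W09G10.t1 (tRNA-His, 90.8) and K06A4.t1 (tRNA-Ala, 90.2), whose sequences stand above. Y39A1A.t1 ranked 75 in replicate 2 and 18472 in replicate 1.

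Signal was highest where the summit lay in or beside the gene. The median pooled percentile was 88.7 in the 69 members with the summit inside the gene and 87.3 in the 87 members at 1 to 100 bp. It was 64.4 in the 57 at 101 to 250 bp, 50.3 in the 38 at 251 to 500 bp and 44.5 in the 88 regions at 501 to 1000 bp, which are not members. Thus the members beyond 250 bp had about the median of the autosomes in the pooled list. For members overlapping a replicate region, the medians of these 4 classes were 91.7, 84.3, 76.0 and 70.3 in replicate 1. In replicate 2 they were 78.8, 88.7, 67.6 and 69.2, without a steady fall. Other autosomal regions overlapping a replicate region had 61.7 and 61.5. Reproducible peaks numbered 5, 7, 1 and 0 in the 4 member classes, and 0 of 38 allows a share of up to 7.89% taken as 3 counts, or 9.18% by the Wilson interval. Across the 251 members, which share libraries and control, Spearman's rho between percentile and distance was -0.35. The regions were also denser there. Pooled summits numbered 2.74 per kb inside autosomal tRNA genes, 1.33 at 1 to 100 bp, 0.615 at 101 to 250 bp and 0.262 at 251 to 500 bp, against 0.277 per kb farther than 500 bp away. The densities inside the genes were 2.46 per kb in replicate 1 and 2.38 in replicate 2, against 0.280 in each beyond 500 bp.

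Summits stood on both sides of the gene. Relative to the first base and in the direction of the gene, the median was 32.0 bp over all members, 42.0 bp over the 90 in the top 10% and 42.0 bp over the 13 reproducible peaks (lowest -104, highest 110). The autosomal genes had a median length of 72 bp. Of the 13 peaks, 4 had the summit upstream of the gene, 5 inside it and 4 downstream. Over all members the numbers were 98, 69 and 84. A summit is the midpoint of a region of 400 bp in every member, and fragments were sheared to 200 to 800 bp, so A box, B box and upstream sequence are not resolved from each other. At the edge of the rule, the members at 492, 497 and 498 bp from B0228.t1, C09B9.t1 and C16D9.t4 had signal values of 56.8, 36.0 and 36.0. The regions just outside, at 501, 503 and 504 bp from F49C5.t1, F14B6.t2 and F49C5.t4, had 39.6, 30.1 and 45.7.

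**Figure D3:**
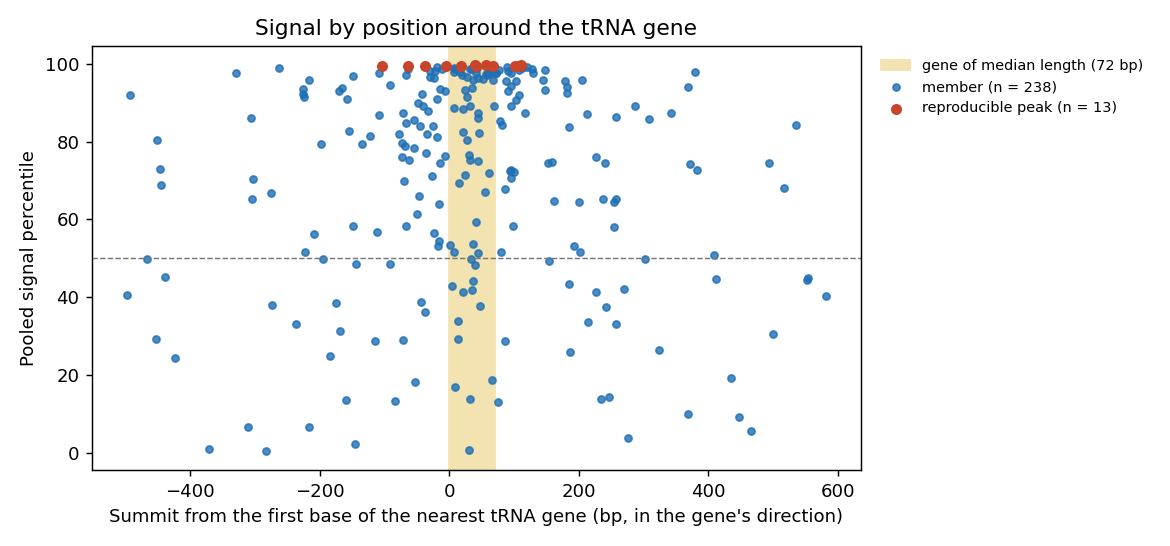
Pooled signal percentile of each of the 251 members against the position of its summit in bp from the first base of the nearest tRNA gene, in the direction of the gene. The band is a gene of median length, the dashed line the autosomal median, and the 13 reproducible peaks all lie between -104 and 110 bp.

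Both replicate lists put the regions near tRNA genes high on their own. Replicate 1 had 226 regions within 500 bp of an autosomal tRNA gene, with a median percentile of 78.7 in that list, against 49.8 for its other 23030 regions. Replicate 2 had 241, with a median of 72.9, against 49.8 for its other 22991. Among the members of the pooled list, 204 overlapped a region of replicate 1 (81.3%, against 64.6% of the other autosomal regions) and 217 one of replicate 2 (86.5% against 69.1%). Both replicates had a region at 175 members (69.7%, 63.8 to 75.1%) against 40.1% of the others, and neither did at 5 members (1.99%) against 6.44% of the others. With at least 50% of the member overlapped, the share with both was 57.0% (50.8 to 62.9%) against 30.7% of the others. The pooled regions were made from the same reads, so this overlap is partly built in. Neighbouring regions can also share 1 replicate region, as both members at C14B9.t1 did in each replicate list. That replicate region then counts more than once in these shares and in the comparison of replicates below.

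The strongest members were only in part the same in the 2 lists. In the top 10% of both lists were 34 members (13.5%, 9.86 to 18.3%) against 1.80% of the others, while 58 members (23.1%, against 7.94%) were there in replicate 1 alone and 36 (14.3%, against 8.47%) in replicate 2 alone. In the top 5%, replicate 1 had 66 members (26.3%) and replicate 2 had 44 (17.5%), against 4.96% and 5.20% of the other autosomal regions. For the 175 members with both values, Spearman's rho between replicates was 0.22, against 0.13 over 9140 other regions. The reproducible list was thresholded on these same replicates, and on the autosomes it holds the 161 regions of highest pooled signal value. Without these peaks rho was 0.07 over 162 members and 0.09 over 8993 others. The percentile in replicate 1 minus that in replicate 2 had a median of 1.54 points, and an SD of 37.0 points over these members.

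**Figure D4:**
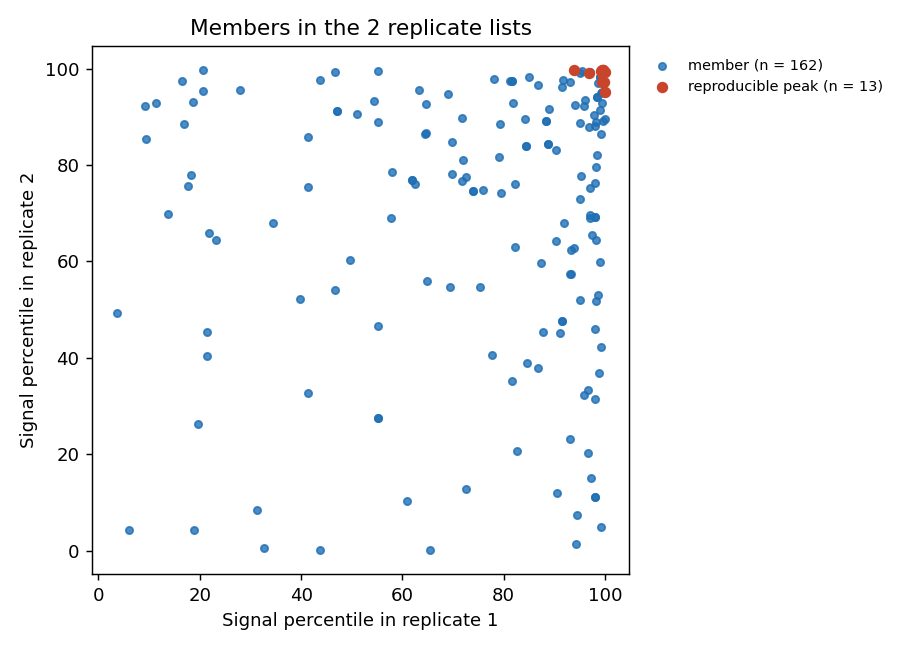
Signal percentile in replicate 1 against that in replicate 2 for the 175 members with a region in both lists, with the 13 reproducible peaks marked. The peaks sit at percentile 93.9 or above in both, and the other 162 members scatter over the range.

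Seen from the genes, 227 of the 336 autosomal tRNA genes had a pooled candidate region within 500 bp (67.6%, 95% Wilson interval 62.4 to 72.3%). It was 209 (62.2%) in replicate 1, 216 (64.3%) in replicate 2 and 159 in both. Pooled summits numbered 0.765 per kb within 500 bp of these genes and 0.277 per kb farther away. How many windows of this size elsewhere hold a summit was not computed, so the shares of genes here and below have no such value beside them. For 98 genes the best region was in the top 10% of the pooled list (29.2%), and 17 genes lay near a reproducible peak (5.06%). By chromosome, the share with a region ran from 62.1% on chromosome I and 63.4% on IV to 75.4% on II, with 64.1% on V and 48 of 64 genes on III. The intervals of all 5 overlapped. The remaining 109 genes had no listed region, which does not show that nothing was recovered there, since each list stops at 30000 regions.

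Isotypes differed in how many of their genes had a region, within small numbers. All 6 tRNA-Cys genes did, 5 of them in the top 10%, and 2 lay near a reproducible peak. So did 15 of 17 tRNA-Arg genes (88.2%, 65.7 to 96.7%), with 9 in the top 10%, and 24 of 28 tRNA-Lys genes (85.7%, 68.5 to 94.3%), with 8. The fewest among isotypes of more than 1 gene were 3 of 14 tRNA-Asn genes (21.4%, 7.57 to 47.6%) and 4 of 11 tRNA-Tyr genes (36.4%, 15.2 to 64.6%). In the replicate lists the tRNA-Asn count was 4 and 7, and the tRNA-Tyr count 7 and 6, so the pooled counts are not fixed to within a few genes. tRNA-Trp genes had the lowest median of the best percentile, 44.2 over 5 genes, and tRNA-Cys the highest, 96.2 over 6. Across the 20 isotypes with a member, the highest-ranked member stood between rank 64 (tRNA-Arg) and rank 504 (tRNA-Met, T15B12.t1), and in 11 of the 20 it was a reproducible peak. tRNA-Gly and tRNA-Glu genes were high in median, at 95.8 and 93.7, although 14 of 35 and 6 of 18 had no region.

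**Figure D5:**
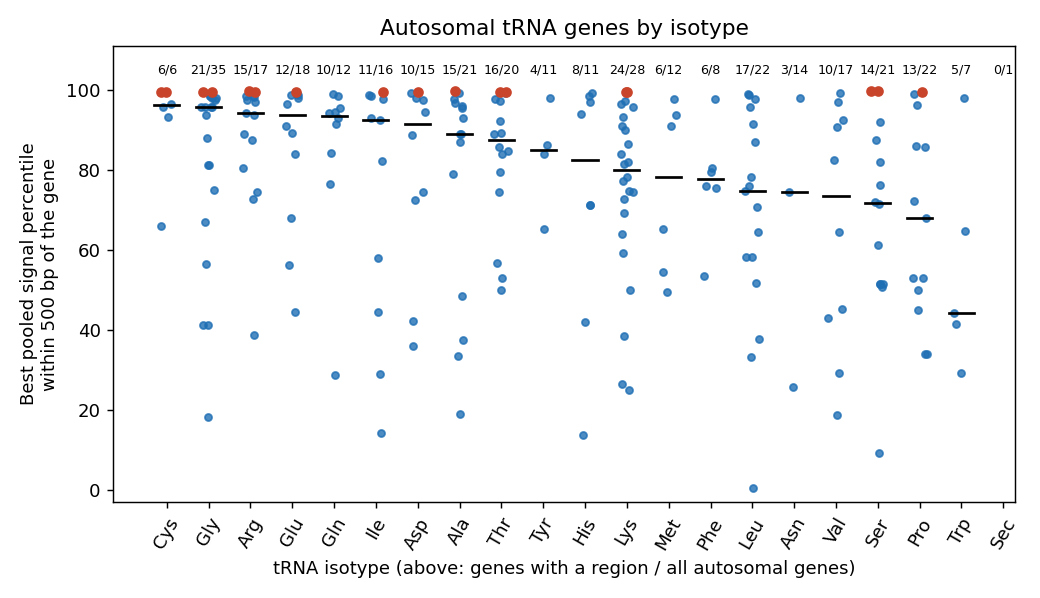
Best pooled signal percentile within 500 bp of each autosomal tRNA gene, by isotype in order of the median (bar), with genes near a reproducible peak as larger red points. The fraction above each column gives genes with a region over all genes, from 6/6 for tRNA-Cys to 3/14 for tRNA-Asn and 0/1 for tRNA-Sec.

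Genes with the same sequence did not have the same signal nearby. Of the autosomal genes, 189 fall into 23 families of 5 or more genes whose sequence is identical, and 139 of these genes had a region. Within a family, the range of the best percentile was 10.8 to 78.6 points, with a median of 56.5. In the largest, 18 tRNA-Gly genes with 29 copies in the genome, 14 had a region, with best percentiles from 41.3 to 99.4. In a family of 15 tRNA-Lys genes, 13 did, from 24.9 to 99.6. Over all 251 members the pooled percentile had an SD of 28.0 points, and the difference between replicates at the same member an SD of 37.0 points. Whether genes of unlike sequence range as widely was not tested. By number of copies in the genome, a region lay near 44 of 85 genes found once (51.8%, 41.3 to 62.1%), 38 of 51 with 2 to 5 copies (74.5%, 61.1 to 84.5%) and 145 of 200 with 6 or more (72.5%, 65.9 to 78.2%). Among genes with a region, the median best percentile was 86.6, 86.6 and 84.3 in the 3 classes. How reads that fit several copies were treated is not given in the sources used here, and its part in these values was not tested.

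The A and B box letters were found in most of the genes. The B box was found in 319 of the 336 autosomal tRNA genes and the A box in 322. A region lay near 7 of the 17 genes without the B box letters (41.2%, 21.6 to 64.0%) and 220 of the 319 with them (69.0%, 63.7 to 73.8%). For the A box it was 4 of 14 (28.6%, 11.7 to 54.6%) and 223 of 322 (69.3%, 64.0 to 74.0%), and neither difference was tested. All 17 genes near a reproducible peak hold both. On either strand of the 400 bp around the summit, the B box letters were in 193 of 251 members (76.9%) and 3177 of 22767 other autosomal regions, and the A box letters in 97.2% of members and 92.4% of the others. The A box pattern is therefore too loose to mark a region. The B box share in members is partly built in, since members were chosen for lying near these genes. Among regions with the B box letters, 13 of 193 members were reproducible peaks (6.74%), against 26 of 3177 others (0.818%). Without them it was 0 of 58 members (Wilson interval up to 6.21%) and 0.623% of the other regions. In the top 10% were 39.9% of members with the letters and 22.4% of those without. Among the other regions it was 10.2% and 9.63%. These matches describe letters and do not show that a factor is bound.

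The share of G and C moved with these groups. Within 50 bp of the summit it averaged 41.7% in members (SD 10.2 over 251) and 34.8% in the other autosomal regions (SD 8.75 over 22767), and it was 50.7% where the summit lay inside the tRNA gene. At or above the members' median GC share of 43.6%, 44.5% of 128 members were in the top 10% against 13.7% of 4039 other regions, and reproducible peaks made up 7.03% against 2.20%. Below it the top 10% held 26.8% of members against 8.86% of others. Members were higher than the others on both sides of that value. The GC share was not matched within either side, and its part in the ranks was not tested. Spearman's rho between percentile and GC share was 0.18 within the members and 0.03 within the others.

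Members at clustered and at single tRNA genes were close in pooled rank and less so in the replicates. Another tRNA gene lay within 5000 bp of the nearest gene in 88 of 251 members (35.1%, 29.4 to 41.1%), and 43.5% of the 336 autosomal tRNA genes are clustered by this measure. The median pooled percentile was 80.9 in the clustered members and 79.4 in the 163 isolated ones. For members with a partner it was 90.6 in clustered and 81.7 in isolated members in replicate 1, and 84.8 and 76.5 in replicate 2. The share in the top 10% was 33.0% (24.0 to 43.3%) and 37.4% (30.4 to 45.1%). Reproducible peaks made up 7 of 88 (7.95%, 3.91 to 15.5%) and 6 of 163 (3.68%, 1.70 to 7.80%), and these intervals overlap. Where 2 or more tRNA genes lay within 500 bp of the summit it was 4 of 26 (15.4%, 6.15 to 33.5%), against 9 of 225 with 1 gene (2.12 to 7.43%), a difference that was not tested. Of the 251 members, 66 overlapped another member, and together the members had 209 different nearest genes.

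In the genome, members lay inside protein-coding genes about as often as other regions but less in exons. The summit was in an intron in 106 members (42.2%, 36.3 to 48.4%) against 6841 of 22767 other autosomal regions, in an exon in 36 (14.3%, 10.5 to 19.2%) against 30.8%, and between protein-coding genes in 109 (43.4%, 37.4 to 49.6%) against 39.1%. Of the 336 tRNA genes themselves, 195 lie inside a protein-coding gene. At 65 of 106 intronic members (61.3%, 51.8 to 70.0%) the nearest tRNA gene was on the same strand as the gene hosting the summit. Of all 188 autosomal tRNA genes that lie in introns of 1 gene, 59.0% were on the strand of their host. The median percentile was 82.7 in intergenic members, 76.9 in introns and 73.2 in exons, and the reproducible peaks numbered 7, 5 and 1. In the middle part of each chromosome, from 25 to 75% of its length, lay 52.6% of members, against 59.2% of other regions and 50.6% of all autosomal tRNA genes.

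Members near the start of a protein-coding gene ranked higher than those away from one. Such a start lay within 500 bp of the summit in 49 members (19.5%, 15.1 to 24.9%) against 22.4% of the others. These 49 had a median percentile of 90.8 and held 6 of the 13 reproducible peaks (12.2%, 5.73 to 24.2%), while the other 202 members had 76.5 and held 7 (3.47%, 1.69 to 6.98%). Among the other autosomal regions the same classes had 1.84% of 5097 and 0.306% of 17670 in the reproducible list. So members exceeded other regions in both settings: in the top 10% were 53.1% against 12.4% near a start, and 31.7% against 8.95% away from one.

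The autosomal members held fewer reproducible peaks than the regions near tRNA genes of the X chromosome, with 13 of 251 (5.18%, 3.05 to 8.66%) against 33 of 219 (15.1%, 10.9 to 20.4%), and the same holds beside the autosomal regions within 500 bp of a snoRNA gene, with 28 of 195 (14.4%). Of all autosomal regions 0.699% are reproducible peaks. The share over all X regions was not computed, so the X value has no such background beside it. The differences were not tested. The median pooled percentile was 79.7 in the members and 75.2 in the snoRNA regions. In the replicates the order was reversed. For regions with a partner, the median was 84.8 in members and 87.0 in snoRNA regions in replicate 1, and 78.0 and 86.3 in replicate 2. Only 3 members lay within 500 bp of a snoRNA gene as well.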

How the data were processed

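Per the deposited file records, the authors called candidate regions from each of 2 replicates and from both pooled, each against 1 control alignment on ce11, and thresholded them by the irreproducible discovery rate (IDR). The deposited score is the caller's signal value, and the deposited −log10 values are of its q-value. Summits were placed by the deposited offset. The labels and file records name no aligner, caller, IDR threshold or depth. Ranks and percentiles of signal value were computed among the autosomal regions of each list with Python 3.11.15, pandas 2.3.3, numpy 2.4.6 and scipy 1.17.1, on scripts tested on simulated regions. A member has its summit within 500 bp of an autosomal tRNA gene (Ensembl release 115). RefSeq gave isotypes for 334 of 336 genes and the sequences (WBcel235). The text names the member peaks, the highest member by chromosome and isotype, and those at the edge of the rule; those next below the peaks were chosen after their values were seen. Members and lists were chosen with earlier results of these data known. With 1 group, no test was made. Shares have 95% Wilson intervals. Alternatives varied the distance, overlap, cluster distance, ranking and replicate.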

Additional observations from a re-analysis of the deposited data

How the results depend on the processing

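Of 36 alternative values, 13 stayed within a tolerance and 23 moved. The tolerance was the SD of the 2 replicate lists for the reproducible share (0.234 points), the median percentile (4.08) and the share of genes (1.47), and the 95% Wilson interval for the other results. With the summit within 100, 250 or 1000 bp of the gene, the share of members overlapping a reproducible peak was 8.33, 7.04 and 4.72% (5.98% at 500 bp), the median percentile 87.7, 84.0 and 72.5 (79.7), and the share of genes with a region 47.0, 60.1 and 79.2% (67.6%). The reproducible share was 1.59% with the upper 109 peaks (0.422% of other autosomal regions), 3.68% at isolated genes, 3.96% away from coding starts and 5.18% when the region had to be a listed peak itself, a choice made after seeing the data. With the list of 1 replicate in place of the pooled list, 4.98 to 5.31% of its regions near tRNA genes overlapped a reproducible peak. The median percentile was then 72.9 to 78.7, and 62.2 to 64.3% of genes had a region. The reproducible list was kept as made from both replicates, so the first share cannot show what 1 replicate alone would give. The tolerance of 0.234 points comes from those same shares and has the same limit. Members with a region in both replicates made up 62.2% at 1000 bp and 57.0% with at least 50% overlapped (69.7%). Clustered members were 22.3% within 1000 bp and 49.0% within 20000 bp (35.1%), and 14.3% lay in exons where 56.6% lay in gene bodies. No paired analysis was possible because there is 1 group. Read depth is unknown, and each list stops at 30000 regions.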
